A study of Homo sapiens with 9 samples.

Results

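Chemokines and cytokines of the inflammatory response were compared across multicellular tumor spheroids (MTSs) of PC-3 cells that overexpress 1 of the NF-YA splice variants. The 10 genes, CXCL1, CXCL2, CXCL3, CXCL8, CCL2, CCL20, IL1A, IL1B, IL6 and the receptor gene CXCR4, were taken by gene symbol from the 27111 genes of the deposited tables, and 9 of the 10 passed the filter on low counts. The genes were matched by symbol and not by a measured value, but they were chosen with earlier results of these data known. PC-3 is an androgen-independent human prostate cancer cell line derived from a bone metastasis. NF-YA is the DNA-binding subunit of NF-Y, the trimeric factor that binds the CCAAT box. NF-YAl is its long splice variant and NF-YAs its short one. The Empty group carried the empty vector, the NF-YAl group overexpressed the long variant and the NF-YAs group the short variant, each with 3 libraries named by a replicate letter (A, B and C for Empty and NF-YAs; A, B and D for NF-YAl). All 3 groups were stable lines made with lentiviral vectors and kept under puromycin selection, the transgenes were of mouse sequence, each library was made from pooled MTSs, and the endogenous NFYA gene was intact in every group.

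Chemokines are small secreted proteins that guide migrating cells along a gradient. The CXC ligands CXCL1, CXCL2, CXCL3 and CXCL8 act on CXCR1 and CXCR2 and are best known for recruiting neutrophils, CCL2 recruits monocytes through CCR2, and CCL20 recruits CCR6-bearing lymphocytes and dendritic cells. Interleukin-1 (IL1A and IL1B) and IL6 are cytokines that act upstream of the NF-kappaB and STAT3 pathways, and the genes of many of these ligands are themselves textbook targets of NF-kappaB. CXCR4, the receptor of CXCL12, is known for directing prostate cancer cells to bone.

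Levels are given as CPM, the expected read counts of a gene scaled to a common library size with TMM factors. Fold changes are log2 fold changes (log2FC) with their standard error (SE) and an adjusted p from edgeR's quasi-likelihood test over all 17108 genes tested. A gene was called a differentially expressed gene (DEG), and is said to have risen or fallen, at adjusted p under 0.01 with an absolute log2FC above 1. With 3 libraries in each group, a two-sided exact permutation test of 1 gene cannot go below 0.1.

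The library totals lay between 18076979 and 27163976 expected counts. Human NFYA counts, to which reads of the mouse transgene could add as far as they aligned, were at 91.8 ± 4.24 CPM (SD, n = 3) in Empty, 341 ± 49.3 CPM in NF-YAl and 261 ± 5.71 CPM in NF-YAs, so that both overexpressing groups were above Empty. These gene-level counts do not tell the long from the short variant. The epithelial keratin genes KRT8 and KRT18 were above 100 CPM in every library, KLK3 was at 0 in every library, and the leukocyte gene PTPRC did not exceed 0.493 CPM. NF-YAl replicate D stood apart. It lay at -47.5 on the third principal component (9.36% of the variance) against 30.9 and 2.06 for NF-YAl replicates A and B. On the second component (26.4%), NF-YAl replicate A lay furthest off, at 59.0 against 35.9 and 31.9 for replicates B and D. The 10 genes with the highest mean TPM over all libraries took 18.8% of the TPM of replicate D, against 37.2% to 49.4% in the other libraries. It was the highest NF-YAl library in 8 of the 9 tested chemokine and cytokine genes, against 37.6% of all tested genes. Values of the CXC ligands in NF-YAl are given with and without it.

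The CXC ligands of the group lie together on chromosome 4 (GRCh37), within a span of 358678 bases that starts with CXCL8 (chr4:74606236-74609433, plus strand), passes CXCL1 (chr4:74735110-74737025, plus strand) and CXCL3 (chr4:74902306-74904524, minus strand) and ends with CXCL2 (chr4:74962757-74964913, minus strand). IL1A (chr2:113531502-113542070), IL1B (chr2:113587328-113594393) and CXCR4 (chr2:136871919-136876747) lie on the minus strand of chromosome 2 and CCL20 (chr2:228670455-228682280) on its plus strand. IL6 (chr7:22765503-22771621) and CCL2 (chr17:32582293-32584227) lie on the plus strands of chromosomes 7 and 17. IL6 overlaps STEAP1B and IL6-AS1 on the opposite strand, and its low counts are uncertain because strand use is not given in the sources used here. The other 9 genes overlap no annotated gene.

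The promoter windows below show how alike CXCL1, CXCL2 and CXCL3 are before their start sites, and give those of CXCL8, IL1B and CXCR4 beside them. Each runs 5′ to 3′ on the gene's strand from 250 bases before to 50 bases after the start site. Capitals mark CCAAT, the NF-Y box, and GGNNNTTCC, a pattern of the kind that NF-kappaB binds, each searched on both strands. The sequences come from RefSeq (GRCh38.p14) and each matched the GRCh37 genome, the build of the counts, at the 1 place given.
CXCL1 (chr4:74734860-74735159, plus strand): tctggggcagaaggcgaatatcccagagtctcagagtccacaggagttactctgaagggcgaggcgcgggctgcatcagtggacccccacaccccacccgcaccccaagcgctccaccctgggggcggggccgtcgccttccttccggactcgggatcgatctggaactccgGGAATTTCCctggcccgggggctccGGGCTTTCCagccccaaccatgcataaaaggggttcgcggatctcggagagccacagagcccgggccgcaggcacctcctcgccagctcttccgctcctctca
CXCL2 (chr4:74964863-74965162, minus strand): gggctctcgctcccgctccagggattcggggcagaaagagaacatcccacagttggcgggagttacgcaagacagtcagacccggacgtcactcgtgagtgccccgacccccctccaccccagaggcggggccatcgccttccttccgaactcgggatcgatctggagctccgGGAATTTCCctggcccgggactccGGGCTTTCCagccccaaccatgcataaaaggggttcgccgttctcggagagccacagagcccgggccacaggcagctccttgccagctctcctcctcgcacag
CXCL3 (chr4:74904357-74904656, minus strand): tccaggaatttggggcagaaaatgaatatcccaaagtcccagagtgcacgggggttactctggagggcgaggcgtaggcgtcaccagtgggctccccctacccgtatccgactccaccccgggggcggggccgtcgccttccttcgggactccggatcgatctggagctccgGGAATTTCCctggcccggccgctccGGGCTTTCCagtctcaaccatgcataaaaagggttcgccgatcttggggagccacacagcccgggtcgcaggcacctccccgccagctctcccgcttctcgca
CXCL8 (chr4:74606036-74606335, plus strand): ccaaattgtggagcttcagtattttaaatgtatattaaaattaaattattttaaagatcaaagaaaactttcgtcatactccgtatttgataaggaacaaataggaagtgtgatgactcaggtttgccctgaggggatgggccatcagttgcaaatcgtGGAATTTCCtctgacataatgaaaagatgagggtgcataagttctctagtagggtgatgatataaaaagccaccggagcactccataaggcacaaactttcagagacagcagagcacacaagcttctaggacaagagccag
IL1B (chr2:113594307-113594606, minus strand): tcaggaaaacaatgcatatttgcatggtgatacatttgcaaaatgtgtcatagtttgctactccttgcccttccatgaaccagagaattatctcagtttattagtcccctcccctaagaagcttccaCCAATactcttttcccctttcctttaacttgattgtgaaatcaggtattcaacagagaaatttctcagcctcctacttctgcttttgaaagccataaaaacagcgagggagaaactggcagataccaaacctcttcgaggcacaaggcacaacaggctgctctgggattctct
CXCR4 (chr2:136875670-136875969, minus strand): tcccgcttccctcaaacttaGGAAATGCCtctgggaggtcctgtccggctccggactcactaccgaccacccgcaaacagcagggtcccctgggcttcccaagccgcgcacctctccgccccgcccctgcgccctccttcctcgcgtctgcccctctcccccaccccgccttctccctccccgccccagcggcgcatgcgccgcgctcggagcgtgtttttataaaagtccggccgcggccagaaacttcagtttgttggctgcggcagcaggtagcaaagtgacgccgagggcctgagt

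Of the 10 genes, 9 had a window in the RefSeq table, all but CCL2. The first window of a gene held GGNNNTTCC in 7 of these 9 genes (CXCL1, CXCL2, CXCL3, CXCL8, CXCR4, CCL20 and IL6), against 20.1% of the 35116 windows of all genes. CCAAT was in the first window of 4 genes (IL1A, IL1B, CCL20 and IL6), against 34.6% of all windows, and also in the second of the 3 CXCR4 windows. The AP-1-like pattern TGANTCA was found in IL1A and CXCL8, against 7.71% of all windows. CXCL1, CXCL2 and CXCL3 each held 2 GGNNNTTCC matches, the nearer one 49 bases before the start site. Their aligned windows shared 84.7% (CXCL1 and CXCL3), 77.0% (CXCL1 and CXCL2) and 78.3% (CXCL2 and CXCL3) of 300 bases, against 48.0% to 50.3% between each of them and CXCL8. IL1B held 1 CCAAT, 121 bases before the start site, and CXCR4 held none in the window shown. A match describes the letters of a window and not a site in use.

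On the per-length scale of TPM, which allows genes to be compared within a group, CXCL8 had the highest mean level in Empty, 25.0 ± 9.62 TPM (SD, n = 3). It was followed by IL1B at 14.7 ± 3.60, CCL2 at 12.7 ± 7.68, CXCL1 at 10.3 ± 3.12, CXCR4 at 8.47 ± 0.994, CXCL2 at 7.48 ± 3.76 and CXCL3 at 4.37 ± 1.93 TPM. IL6, IL1A and CCL20 had means below 1 TPM. Each of the 7 higher genes overlapped its neighbour in this order. In NF-YAs, IL1B (89.4 ± 20.5 TPM) and CXCL8 (79.6 ± 42.9 TPM) led, followed by CXCL1 (39.4 ± 16 TPM), and CCL2 was at 1.88 ± 0.930 TPM.

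Against Empty, NF-YAl MTSs showed 1 risen gene, IL1B, and 1 fallen gene, CCL2, of the 9 tested. Of all genes tested, 4.76% rose and 3.5% fell in this comparison. NF-YAs MTSs showed 2 risen genes, CXCL1 and IL1B, and 2 fallen genes, CCL2 and CXCR4, with 5.44% of all genes risen and 3.9% fallen. These shares of all genes are also the background for the counts of listed genes called against Empty below. When the isoforms were set against each other, CXCR4 was higher in NF-YAl and no gene of the group was lower at the threshold, while 6 of 9 had an unadjusted p under 0.05. Here and below, no share of all genes was taken for counts at an unadjusted p, so they have no background to be read against. Between NF-YAl and NF-YAs, 1.74% of all genes were higher and 2.86% lower in NF-YAl. DESeq2 called 2 genes there, CXCR4 higher and CCL2 lower. The libraries did not overlap in 3 of 9 genes between NF-YAl and Empty (42.4% of all genes), in 5 of 9 between NF-YAs and Empty (56.4%) and in 2 of 9 between NF-YAl and NF-YAs (39.5%), so these counts of separated genes were near the background. The median log2FC of the 9 genes was 0.31 for NF-YAl and 0.57 for NF-YAs, against 0.01 and -0.00 over all genes tested. Both medians rested on 1 library, since that of NF-YAl was -0.32 without NF-YAl replicate D and that of NF-YAs was -0.18 without NF-YAs replicate A. For NF-YAl against NF-YAs the median was -0.54, against 0.02 over all genes, and -0.77 without NF-YAl replicate D. Both comparisons with Empty share the same 3 Empty libraries.

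**Figure D1:**
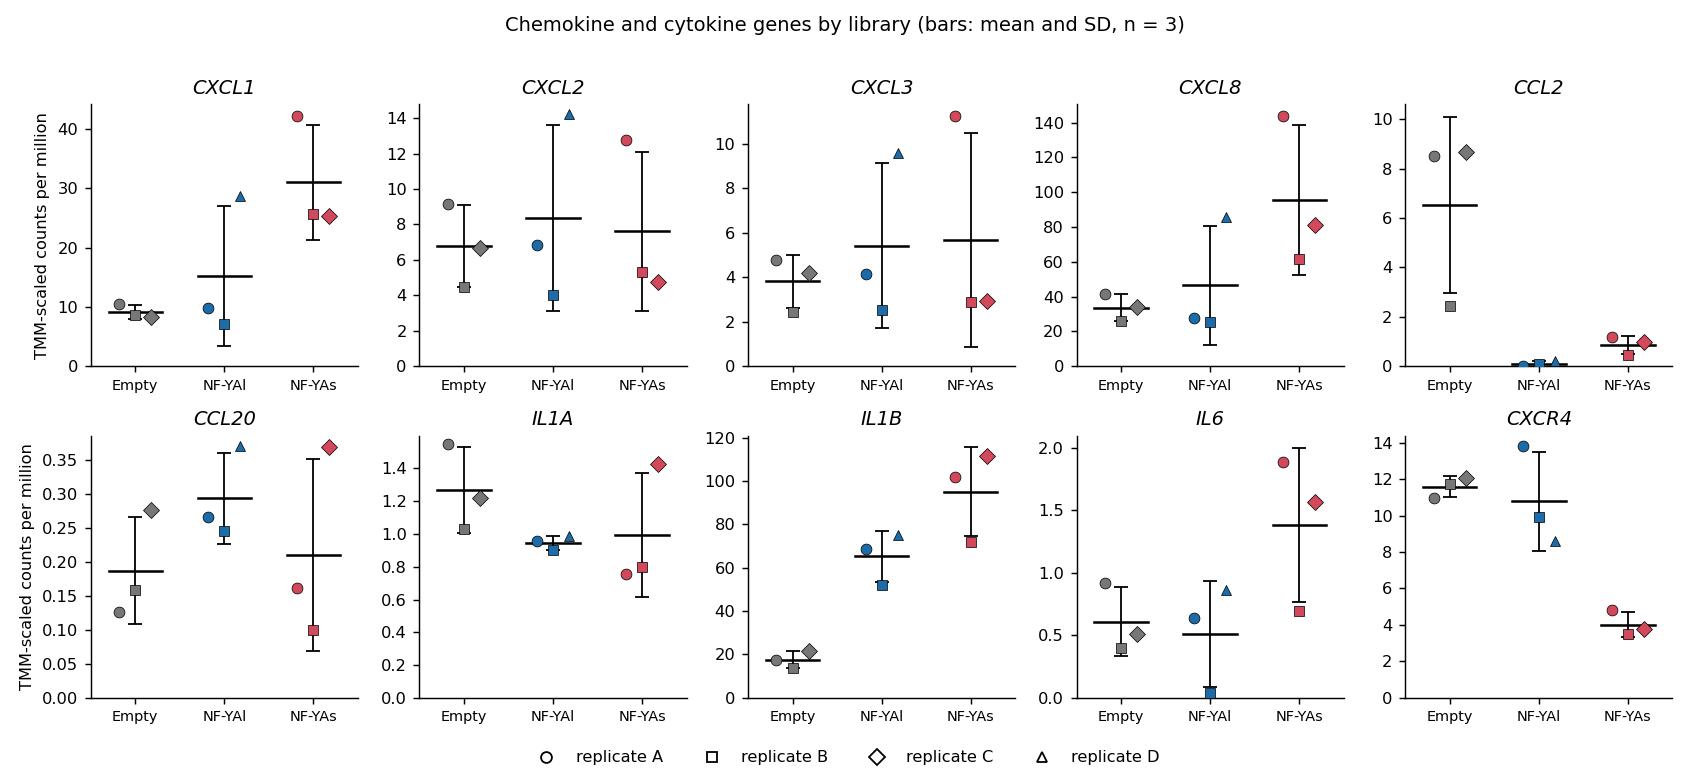
Level of each of the 10 genes in TMM-scaled CPM (vertical axes, linear from 0, scaled by gene) in the 3 libraries of each group, with the marker shape giving the replicate letter and bars the mean and SD. IL1B lies higher in all 6 overexpressing libraries, CCL2 lies lower in them, CXCR4 is low in the 3 NF-YAs libraries, and NF-YAl replicate D is far above replicates A and B for CXCL1, CXCL2, CXCL3 and CXCL8.

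IL1B, the secreted form of interleukin-1, rose with both isoforms. It was at 17.6, 13.9 and 21.4 CPM in Empty replicates A, B and C, at 68.8, 52.1 and 75.0 CPM in NF-YAl replicates A, B and D, and at 102, 71.9 and 111 CPM in NF-YAs replicates A, B and C. Every overexpressing library was above every Empty library, and the lowest NF-YAs library lay within the NF-YAl range. The log2FC was 1.89 (SE 0.20, adjusted p = 2.89e-05), a 3.70-fold difference, in NF-YAl and 2.43 (SE 0.20, adjusted p = 4.69e-06), a 5.38-fold difference, in NF-YAs. Between the isoforms the log2FC was -0.54 (95% interval -0.95 to -0.13, adjusted p = 0.0560), which did not pass. Both calls against Empty were kept under all 16 alternatives, with log2FC from 1.74 to 2.12 in NF-YAl and from 2.28 to 2.60 in NF-YAs. NF-YAl replicate D was at 1.24 times the mean of replicates A and B, and the call was kept without it.

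IL1A, the second interleukin-1 gene and the neighbour of IL1B, stayed low. The Empty libraries held 37, 26 and 31 counts, the NF-YAl libraries 18, 22 and 24 and the NF-YAs libraries 14, 16 and 31, or 1.27 ± 0.263, 0.947 ± 0.0436 and 0.993 ± 0.378 CPM. The NF-YAl libraries all lay below the Empty libraries, by a log2FC of -0.42 (SE 0.31, adjusted p = 0.340) that did not pass. For NF-YAs the log2FC was -0.34 (95% interval -1.02 to 0.34, adjusted p = 0.435).

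The receptor side of interleukin-1 was measured as well. IL1R1, the signalling receptor, rose in both groups from a low level, being 0.503, 0.556 and 0.472 CPM in Empty, 2.02, 1.06 and 1.73 CPM in NF-YAl and 2.05, 1.99 and 1.80 CPM in NF-YAs (log2FC 1.63 and 1.92, adjusted p = 0.00162 and 0.000448). IL1RAP, the accessory chain that IL1R1 needs to signal, was at 7.51, 6.72 and 7.95 CPM in Empty, 10.7, 9.20 and 12 CPM in NF-YAl and 23.6, 22.7 and 23.2 CPM in NF-YAs. It rose in NF-YAs (log2FC 1.65, SE 0.13, adjusted p = 4.08e-06), had a log2FC of 0.52 in NF-YAl that did not pass (adjusted p = 0.0106), and was lower in NF-YAl than in NF-YAs (log2FC -1.13, adjusted p = 0.000138). The decoy receptor gene IL1R2 and the antagonist gene IL1RN did not exceed 0.545 CPM in any library and were not tested.

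Of 25 interleukin-1 pathway genes, 17 were tested. In NF-YAl 1 rose (IL1R1) and 5 fell (IL18, IL1RL1, IL33, IL37 and IRAK1), with a median log2FC of -0.19. In NF-YAs 2 rose (IL1R1 and IL1RAP) and none fell, with a median of 0.12. DESeq2 called none lower and 3 higher there, adding CASP1, which did not exceed 1.80 CPM in NF-YAs. An unadjusted p under 0.05 with a negative log2FC was found for 3 genes in NF-YAs. IL1RL1, the receptor of interleukin-33, was at 49.7, 51.8 and 56.4 CPM in Empty, at 12.1, 12.6 and 24.8 CPM in NF-YAl and at 64.7, 52.4 and 55.7 CPM in NF-YAs. It fell in NF-YAl (log2FC -1.67, adjusted p = 0.000158) and was lower there than in NF-YAs (log2FC -1.80, adjusted p = 0.000222). IL33, its ligand, had a log2FC of -1.23 in NF-YAl (adjusted p = 0.00731) and of -0.22 in NF-YAs (adjusted p = 0.583). IL18, a cytokine activated by the same caspase as IL1B, fell in NF-YAl (log2FC -1.37, adjusted p = 0.000138) and in NF-YAs had a log2FC of -0.99, just short of the size required.

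CCL2, the monocyte chemoattractant, fell with both isoforms and was almost lost with NF-YAl. Empty replicates A, B and C had 203, 61 and 220 counts, or 8.51, 2.42 and 8.66 CPM. NF-YAl replicates A, B and D had 0, 2 and 5 counts, and NF-YAs replicates A, B and C had 22, 9 and 21 counts, or 1.18, 0.448 and 0.968 CPM. No library of one group overlapped another group, and Empty replicate B was low within its own. The log2FC was -5.91 (SE 0.70, adjusted p = 6.39e-05) in NF-YAl and -2.91 (SE 0.52, adjusted p = 0.000973), a 7.52-fold difference, in NF-YAs. Because the NF-YAl value rests on 7 counts in all, its size depends on how low counts are treated, and it ranged from -6.98 to -3.24 over 15 alternatives, in each of which the call was kept. A filter that asks for 10 counts in every library leaves the gene untested. Between NF-YAl and NF-YAs the log2FC was -3.0 (SE 0.84, adjusted p = 0.0235), which did not pass at 0.01, with adjusted p from 0.000381 to 0.0736 over 14 alternatives.

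Leukocytes also make CCL2, and the summed level of their markers was lower in the overexpressing groups. The 15 leukocyte markers summed to 59.2 to 76.7 CPM in Empty, 24.4 to 40.1 CPM in NF-YAl and 32.3 to 39.4 CPM in NF-YAs. Nearly all of this was CD68, a lysosomal gene also read in other cells (53.1 to 70.7, 20.3 to 35.8 and 27.2 to 35.8 CPM), which fell in NF-YAl and did not reach the size required in NF-YAs (log2FC -1.07 and -0.91). Of the 5 leukocyte markers tested ITGAM, an integrin gene, rose in both groups (0.157 to 0.318, 0.477 to 1.23 and 0.796 to 1.15 CPM, log2FC 1.92 and 2.20), while CD163 and MS4A1 were at 0 in every library and PTPRC at or below 0.493 CPM. Sums of the 9 endothelial markers (46.1 to 52.4, 330 to 724 and 195 to 294 CPM in Empty, NF-YAl and NF-YAs) and of the 9 fibroblast markers (30.1 to 77.1, 115 to 324 and 168 to 205 CPM) were higher in the overexpressing groups, mostly through KDR, COL3A1 and PDGFRA, while CDH5 did not exceed 0.433 CPM, DCN 0.327 CPM and LUM 0.323 CPM. In the other direction the endothelial markers VWF fell in NF-YAl (6.42 to 7.31 CPM in Empty, 0.493 to 0.941 CPM in NF-YAl, log2FC -3.23) and PECAM1 fell in NF-YAs (5.49 to 7.32 CPM in Empty, 1.59 to 2.12 CPM in NF-YAs, log2FC -1.73). The part of these marker levels in the chemokine results was not tested. The study's methods name only PC-3 cells in the MTSs, so the marker levels do not count cells of other types. In bulk samples the share of cells that express a gene and its RNA per cell cannot be told apart. The receptor gene CCR2 did not exceed 0.199 CPM and was not tested.

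CCL20 was near the limit of detection, with 2 to 9 counts in each of the 9 libraries against a floor of 3 counts, and was not tested. Its receptor gene CCR6 was read at 5.17 to 9.94 CPM, with a log2FC of -0.18 in NF-YAl and -0.60 in NF-YAs (adjusted p = 0.531 and 0.0356), neither of which passed.

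CXCL1 rose in NF-YAs. It was at 10.5, 8.66 and 8.34 CPM in Empty, at 9.81, 7.20 and 28.7 CPM in NF-YAl replicates A, B and D, and at 42.2, 25.6 and 25.3 CPM in NF-YAs. All NF-YAs libraries were above all Empty libraries, while in NF-YAl replicates A and B lay with Empty and replicate D with NF-YAs. With NF-YAs the log2FC reached 1.76 (SE 0.41, adjusted p = 0.00556), a 3.38-fold difference. The call was lost when any 1 of the 3 Empty or 3 NF-YAs libraries was left out, with adjusted p up to 0.0282 and log2FC from 1.48 to 1.88. In NF-YAl the log2FC was 0.74 (SE 0.41, adjusted p = 0.196), and -0.12 without replicate D (adjusted p = 0.726, and from 0.0497 to 0.726 over 16 alternatives).

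CXCL8 (interleukin-8), the most abundant of the CXC ligands, went a similar way. It was at 41.4, 26.0 and 33.8 CPM in Empty, at 27.8, 25.7 and 85.8 CPM in NF-YAl and at 144, 61.6 and 81.3 CPM in NF-YAs. Each NF-YAs value was above the Empty range, NF-YAl replicates A and B within or beside the Empty range, and replicate D above it. The log2FC of 1.5 in NF-YAs (SE 0.43, adjusted p = 0.0158) did not pass at 0.01, and it passed in 5 of 16 alternatives, over which the adjusted p ran from 3.31e-05 to 0.0815. In NF-YAl the log2FC was 0.47 (adjusted p = 0.439), and -0.33 without replicate D (adjusted p = 0.388, and from 0.203 to 0.702 over 16 alternatives).

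CXCL2 and CXCL3, which share most of their promoter letters with CXCL1, passed in no comparison. CXCL2 was at 9.14, 4.49 and 6.69 CPM in Empty, at 6.84, 4.05 and 14.2 CPM in NF-YAl and at 12.8, 5.32 and 4.75 CPM in NF-YAs. CXCL3 was at 4.78, 2.46 and 4.21 CPM in Empty, at 4.14, 2.54 and 9.61 CPM in NF-YAl and at 11.3, 2.89 and 2.95 CPM in NF-YAs. In both genes NF-YAl replicate D and NF-YAs replicate A were high, and the other overexpressing libraries lay in or near the Empty range. In NF-YAs the log2FC was 0.16 for CXCL2 (95% interval -0.83 to 1.16) and 0.57 for CXCL3 (95% interval -0.64 to 1.78), so that changes of the size seen for CXCL1 were outside the interval for CXCL2 and just inside it for CXCL3. Without NF-YAs replicate A these values were -0.42 and -0.38. In NF-YAl the log2FC was 0.31 for CXCL2 and 0.51 for CXCL3, and -0.32 and -0.21 without replicate D.

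Reads could be shared between these close paralogs, so CXCL1, CXCL2 and CXCL3 were also summed. Of their 27 expected counts, 25 were whole numbers within 0.005, so few reads had been split. The sum was 19.8 ± 4.44 CPM in Empty, 29.0 ± 20.7 CPM in NF-YAl and 44.3 ± 18.9 CPM in NF-YAs (SD, n = 3). For NF-YAs it gave a log2FC of 1.16 (SE 0.41, adjusted p = 0.0462), which did not pass at 0.01, and for NF-YAl 0.56 (SE 0.41, adjusted p = 0.337) with replicate D and -0.20 without it.

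**Figure D2:**
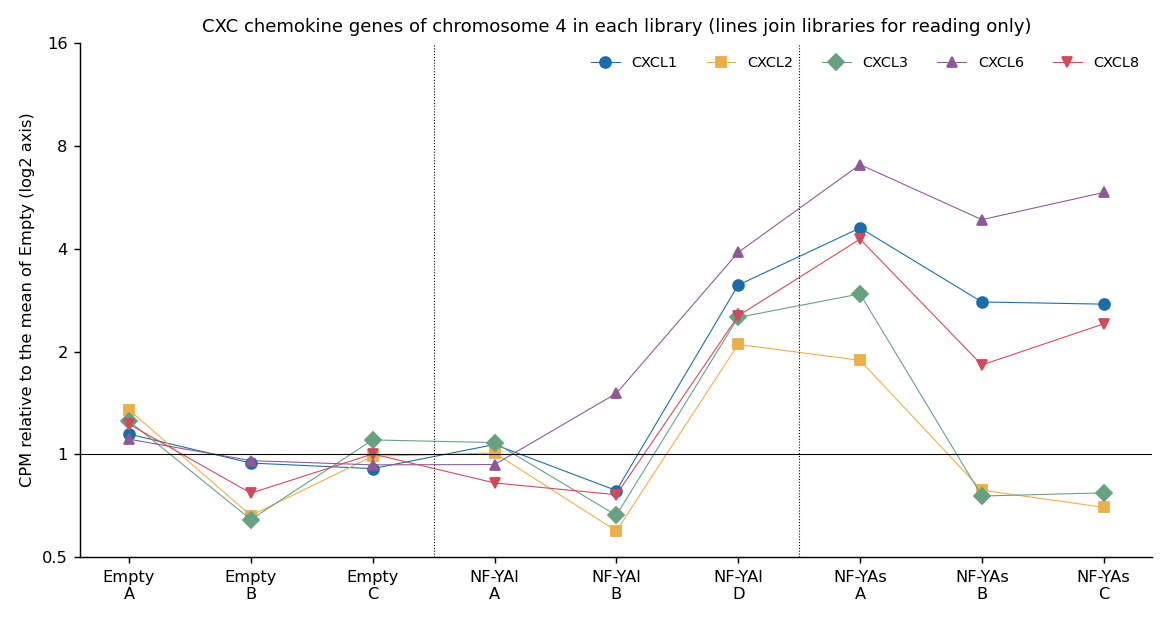
CPM of CXCL1, CXCL2, CXCL3, CXCL6 and CXCL8 in each library, divided by the gene's mean in Empty (vertical axis, log2 scale), with the libraries along the horizontal axis by group and replicate letter. CXCL1, CXCL6 and CXCL8 are above 1 in all 3 NF-YAs libraries, CXCL2 and CXCL3 of these only in NF-YAs replicate A, and all 5 genes are above 1 in NF-YAl replicate D.

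NF-YAl replicate D was 3.38 times the mean of replicates A and B for CXCL1, 2.61 times for CXCL2, 2.88 times for CXCL3 and 3.20 times for CXCL8. NF-YAs replicate A was 1.66, 2.54, 3.86 and 2.01 times the mean of replicates B and C for the same genes. IL6 had 2.55 and 1.67 times by the same measures, and IL1B 1.24 and 1.11 times. NFKBIA, an inhibitor that NF-kappaB itself induces, was named after its values were seen. It was also highest in NF-YAl replicate D, at 214 CPM against 104 and 102 CPM in replicates A and B. Replicate D was the highest NF-YAl library for 10 of 23 genes of NF-kappaB subunits, inhibitors and kinases (43.5%). The same held for 12 of 22 other NF-kappaB targets (54.5%) and for 2 of 19 tumour necrosis factor and interleukin-17 receptor genes (10.5%), against 37.6% of all tested genes. Without replicate D, CXCL1 and CXCL8 were lower in NF-YAl than in NF-YAs by a log2FC of -1.87 and -1.83 (adjusted p = 0.000153 and 0.000819), against -1.02 and -1.04 with it (adjusted p = 0.0860 and 0.0946), and over 16 alternatives the adjusted p ran from 1.57e-05 to 0.271 for CXCL1 and from 0.000130 to 0.346 for CXCL8. What set replicate D apart was not tested.

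CXCL6, a further CXC ligand of the same receptors, lies between CXCL8 and CXCL1. It was at 7.30, 6.32 and 6.14 CPM in Empty, at 6.15, 9.94 and 25.7 CPM in NF-YAl replicates A, B and D and at 46.4, 32.0 and 38.4 CPM in NF-YAs. It rose in NF-YAs (log2FC 2.56, SE 0.39, adjusted p = 0.00035), and its log2FC of 1.09 in NF-YAl did not pass (adjusted p = 0.0495). That value rested on replicate D, and was 0.31 without it (adjusted p = 0.265) and 1.44 without replicate A (adjusted p = 0.00234, past the threshold), with adjusted p from 0.00234 to 0.337 over its alternatives. The receptor gene CXCR1 was at 0 in every library and CXCR2 did not exceed 0.246 CPM, so neither was tested.

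Of 32 further chemokine ligands, 7 were tested. In NF-YAl CCL25 and CXCL16 rose and CCL26 fell, and in NF-YAs CCL28, CXCL16 and CXCL6 rose and CCL26 fell, with medians of 0.73 and 0.75. CCL26, a ligand of the eosinophil receptor CCR3, was at 13.7, 17.2 and 23.1 CPM in Empty, 2.49, 2.58 and 4.07 CPM in NF-YAl and 5.76, 3.23 and 4.75 CPM in NF-YAs (log2FC -2.55 and -1.98, adjusted p = 2.81e-05 and 0.000114). CXCL16, a membrane-bound ligand of CXCR6, went from 1.35 to 2.52 CPM in Empty up to 5.34 to 9.23 CPM in NF-YAl and 4.31 to 5.62 CPM in NF-YAs (log2FC 2.02 and 1.44, adjusted p = 0.000147 and 0.00145). CCL28, a mucosal chemokine, had a log2FC of 0.73 in NF-YAl and 1.04 in NF-YAs (adjusted p = 0.00722 and 0.000687).

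IL6 was low in every library. The 3 Empty libraries held 22, 10 and 13 counts, those of NF-YAl 12, 1 and 21 and those of NF-YAs 35, 14 and 34, or 0.611 ± 0.276, 0.513 ± 0.424 and 1.38 ± 0.615 CPM. The groups overlapped, and no comparison passed (log2FC -0.26 in NF-YAl, adjusted p = 0.812, and 1.18 in NF-YAs, 95% interval -0.14 to 2.49, adjusted p = 0.151). The interval for NF-YAl ran from -1.71 to 1.2.

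The receptor side of IL6 was read at higher levels. IL6R, the ligand-binding chain, fell in both groups, being at 38.5, 38.0 and 41.9 CPM in Empty, 17.1, 21.9 and 18.2 CPM in NF-YAl and 13, 13.5 and 11.8 CPM in NF-YAs (log2FC -1.05 and -1.63, adjusted p = 4.57e-05 and 2.32e-06). IL6ST, the shared signalling chain gp130, was at 125 to 178 CPM and did not pass in either group (log2FC 0.18 and 0.41). LIF, a cytokine that signals through IL6ST, rose in both, from 88.1, 80.3 and 70.6 CPM in Empty to 220, 234 and 310 CPM in NF-YAl and 177, 167 and 136 CPM in NF-YAs (log2FC 1.68 and 1.01, adjusted p = 8.87e-06 and 0.000245). LIF and IL6R were the genes called among the 17 tested of 20 in the IL6 family and its signalling, whose medians were -0.08 and -0.01.

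CXCR4 fell in NF-YAs and not detectably in NF-YAl. It was at 10.9, 11.7 and 12.1 CPM in Empty, at 13.8, 9.90 and 8.63 CPM in NF-YAl and at 4.79, 3.48 and 3.78 CPM in NF-YAs. The NF-YAs libraries lay below all 6 others, and the NF-YAl libraries lay around the Empty range. The log2FC was -1.53 (SE 0.20, adjusted p = 9.66e-05), a 2.89-fold difference, in NF-YAs and -0.11 (95% interval -0.51 to 0.29, adjusted p = 0.703) in NF-YAl. In the direct comparison CXCR4 was higher in NF-YAl than in NF-YAs by a log2FC of 1.42 (SE 0.20, adjusted p = 0.000470), and both calls were kept under all 16 alternatives. Of its 5 transcripts, NM_003467.2 held 93.2% to 100% of the gene's expression in every library of the 3 groups.

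The partners of CXCR4 were weakly read or did not pass. Its ligand gene CXCL12 did not exceed 0.371 CPM and was not tested. ACKR3, the second CXCL12 receptor, was at 5.79, 6.95 and 6.22 CPM in Empty, 2.81, 4.13 and 7.19 CPM in NF-YAl and 8.56, 9.70 and 10.6 CPM in NF-YAs. The NF-YAs libraries were above the rest, and the log2FC of 0.60 did not pass (adjusted p = 0.0901), nor did that of -0.41 in NF-YAl (adjusted p = 0.268). Of 22 further chemokine receptors 9 were tested and none was called against Empty by edgeR or DESeq2, with medians of -0.18 in NF-YAl and -0.24 in NF-YAs. An unadjusted p under 0.05 was found for 2 of the 9 in NF-YAl and 4 in NF-YAs, with no share of all genes taken at that cut.

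**Figure D3:**
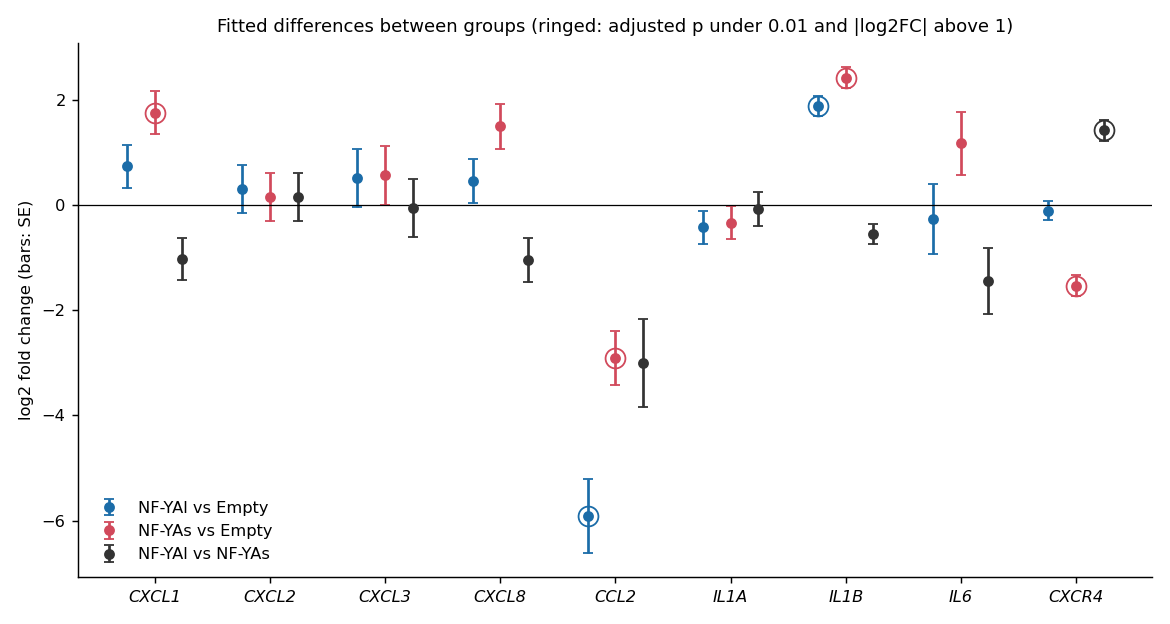
Fitted log2FC (vertical axis) of the 9 tested genes in the 3 comparisons, with SE as bars and a ring around each gene past both thresholds. IL1B and CCL2 are ringed in both comparisons with Empty, CXCL1 only in NF-YAs against Empty, and CXCR4 in NF-YAs against Empty and in NF-YAl against NF-YAs.

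**Figure D4:**
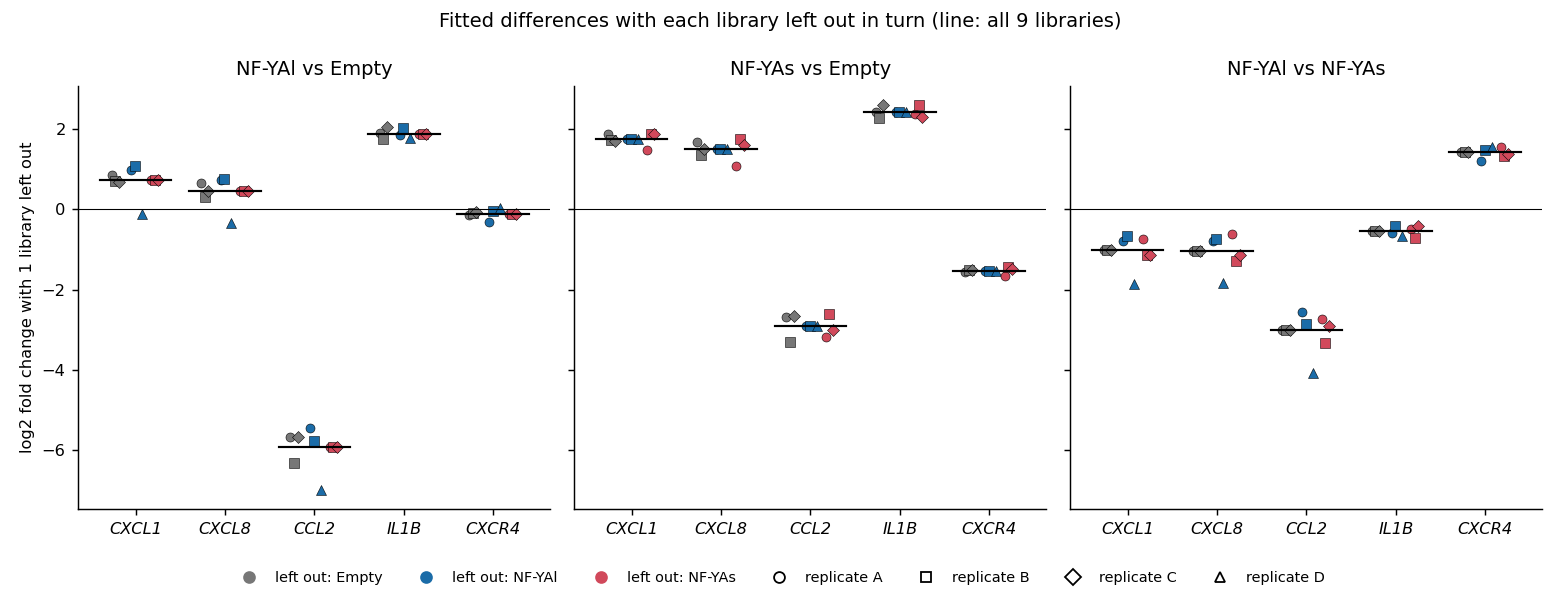
Fitted log2FC of CXCL1, CXCL8, CCL2, IL1B and CXCR4 with each of the 9 libraries left out in turn (colour for the group and shape for the replicate letter left out), with a line for the fit to all libraries. Leaving out NF-YAl replicate D moves CXCL1 and CXCL8 in both comparisons that hold NF-YAl, from 0.74 to -0.12 for CXCL1 against Empty, and moves IL1B and CXCR4 little.

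The NF-kappaB pathway was read through its own genes and its other targets. All 23 genes of its subunits, inhibitors and kinases were tested, and none was called in NF-YAl by edgeR or DESeq2 (median log2FC 0.05). An unadjusted p under 0.05 was found for 14 of them, with no share of all genes taken at that cut. In NF-YAs (median 0.16) MAP3K14, the kinase NIK of the alternative arm, rose from 27.1, 28.6 and 24.4 CPM to 49.8, 62.3 and 60.2 CPM (log2FC 1.11, adjusted p = 5.56e-05). CYLD, a deubiquitinase that restrains the pathway, fell from 80.8, 89.2 and 85.8 CPM to 42.7, 39.7 and 43.7 CPM (log2FC -1.02, adjusted p = 8.9e-06). In NF-YAl the same genes had log2FC of 0.76 and -0.78, under the size required, although both had adjusted p under 0.01.

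Of 30 other NF-kappaB target genes, 22 were tested. In NF-YAl 6 rose and 2 fell (median -0.16), with 4.76% and 3.5% of all genes tested risen and fallen. In NF-YAs 8 rose and 2 fell (median 0.44), with 5.44% and 3.9% of all genes. DESeq2 called 6 higher and 2 lower in NF-YAl, and 10 higher and 3 lower in NF-YAs. ICAM1, the adhesion receptor of leukocyte integrins, rose from 9.31, 11.5 and 11.2 CPM to 92.7, 139 and 154 CPM in NF-YAl and 93.2, 97.7 and 123 CPM in NF-YAs (log2FC 3.59 and 3.29, adjusted p = 3.48e-07 and 4.55e-07). IL32, a cytokine, rose in both (log2FC 1.90 and 2.04, adjusted p = 6.44e-05 and 3.27e-05). MMP9, a matrix-degrading protease, was at 0.755, 0.636 and 0.630 CPM in Empty, 2.17, 1.92 and 1.64 CPM in NF-YAl and 4.90, 5.13 and 6.54 CPM in NF-YAs. It rose in both (log2FC 1.49 and 3.03) and was lower in NF-YAl than in NF-YAs (log2FC -1.53, adjusted p = 0.000485). CFB, complement factor B, fell in NF-YAs (log2FC -1.60, adjusted p = 0.00012) and had a log2FC of -0.72 in NF-YAl. The 2 genes that fell in NF-YAl were C3 and GADD45B, and the 2 in NF-YAs were CFB and GADD45B.

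Among 21 genes of tumour necrosis factor and interleukin-17 receptors, 19 were tested. IL17RE, a receptor of interleukin-17C, fell in both groups (log2FC -1.56 and -1.27, adjusted p = 2.53e-05 and 7.92e-05). TRAF5, a signalling adaptor, rose in NF-YAl (log2FC 1.15, adjusted p = 2.97e-05) and had a log2FC of 0.76 in NF-YAs. The medians of this list were -0.02 and 0.24.

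**Figure D5:**
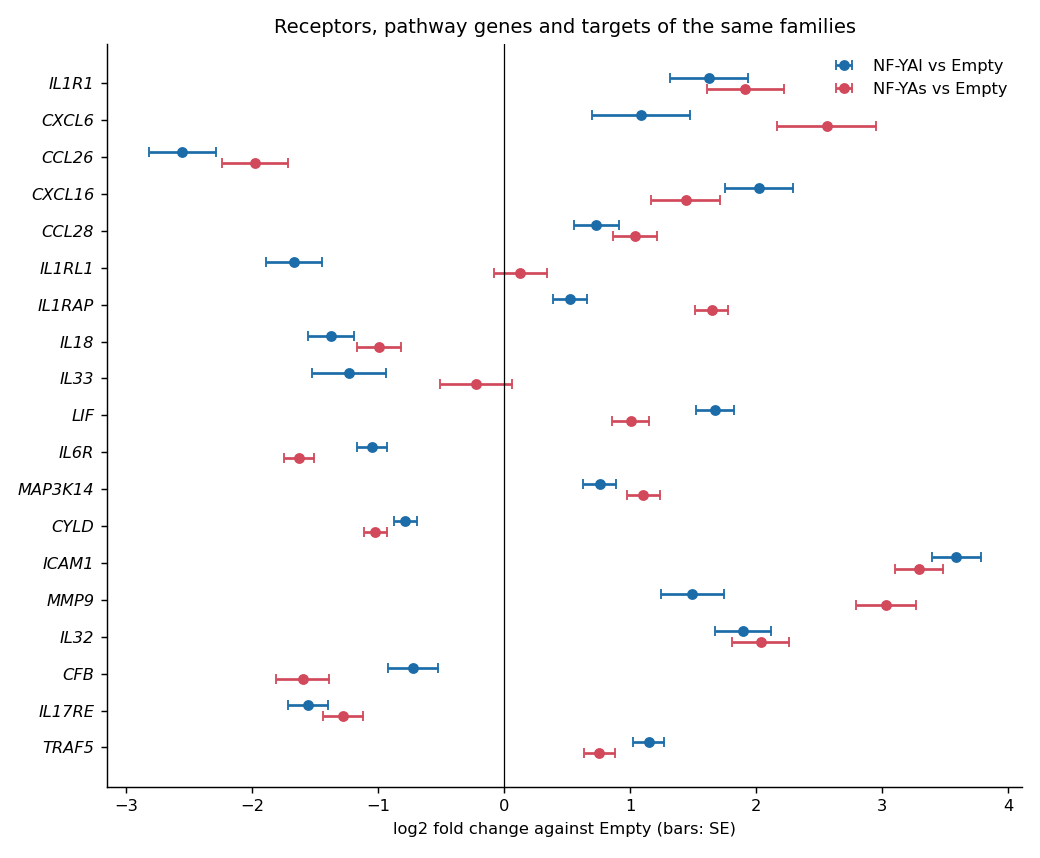
Fitted log2FC against Empty (horizontal axis) of receptors, pathway genes and further targets of the same families, for NF-YAl and NF-YAs, with SE as bars. ICAM1, MMP9, IL32, CXCL16, LIF and IL1R1 lie to the right in both groups, CCL26, IL6R and IL17RE to the left in both, and IL1RL1 to the left in NF-YAl with NF-YAs near 0.

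Across the 9 libraries, which share group as well as depth, the levels of these genes (log2 CPM) were compared with those of 12125 genes by Pearson's r, as a description. The gene most like CXCL1 was CXCL8 (r = 0.970), and the gene most like CXCL3 was CXCL2 (r = 0.971). CXCL8 was most like ROCK2 (r = 0.971), then CXCL1, and CXCL2 was most like PPP6C (r = 0.955). CCL2 was most like the collagenase gene MMP13 (r = 0.976), IL1B most like ZMYND11 (r = 0.985) and CXCR4 most like TTC3 (r = 0.992), while IL1A reached 0.828 with RALGAPA1P1. CXCL1 and CXCR4 went in opposite ways (r = -0.80), as did CCL2 and IL1B (r = -0.72). CXCL1 was less like its paralogs CXCL2 (r = 0.55) and CXCL3 (r = 0.61) than like CXCL8, and these differences between correlations were not tested.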

How the data were processed

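RNA-seq of MTSs of PC-3 cells was compared in 9 libraries of 3 groups, grouped by the labels. The deposited files hold RSEM expected counts, TPM and the percent of a gene's expression held by each transcript. Per the labels and the study's methods, the authors made stranded total RNA libraries and aligned reads with Bowtie2 within RSEM to the human transcriptome (hg19). Whether strand was used in counting is not given in the sources used here. The libraries came from separate experiments per the study's methods.

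Gene-level expected counts were rounded and fitted in edgeR 4.0.16 (R 4.3.3; limma 3.58.1) with all 9 libraries, group as the only term, filterByExpr, TMM scaling and the quasi-likelihood F test, with Benjamini-Hochberg adjustment over 17108 of 27111 genes. Calls needed adjusted p under 0.01 and absolute log2FC above 1. SE is the absolute log2FC over the root of F. Tested on simulated data for NF-YAl against Empty with 17108 genes, the fit recovered 200 of 200 changed genes with 0 false calls. The simulation gave all genes the same dispersion and changed only genes above 5 CPM, all by the same size. It therefore does not speak for genes of low counts, smaller changes or a library that stands apart. Total expected counts were 18076979 to 27163976 per library. A count of 0 allows up to 3 counts, which is 0.118 to 0.162 CPM, and covers counting error only. Alternatives used DESeq2 1.42.0, limma on log2(TPM + 1), other scaling, filters, thresholds and libraries, and a replicate block. Named genes were the 10 genes, NFYA, their ligands and receptors, and of each list up to 4 called genes of largest log2FC with at least 5 CPM and no overlap between groups, with all genes of any count of 5 or fewer. Likeness took genes of at least 5 CPM. The genes, lists and tests were chosen with earlier results of these data known. Gene positions are from GENCODE on GRCh37.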

Additional observations from a re-analysis of the deposited data

Results flagged for a closer look

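The following 4 differences between the isoforms were picked out from those that passed the threshold when NF-YAl and NF-YAs were compared directly. They are not the only such differences among the genes described. CCL25, KDR and PECAM1 (higher in NF-YAl) and IL37, CASP1, C3, CSF3, BCL2A1, CCRL2 and VWF (lower) also passed in this comparison. CXCR4 was 1.42 log2 units higher in NF-YAl than in NF-YAs (adjusted p = 0.000470, edgeR), with all 3 NF-YAl libraries above all 3 NF-YAs libraries. IL1RL1 was lower in NF-YAl by a log2FC of -1.80 (adjusted p = 0.000222), IL1RAP by -1.13 (adjusted p = 0.000138) and MMP9 by -1.53 (adjusted p = 0.000485), with no overlap between the 3 libraries of each group. Of all genes tested, 39.5% did not overlap between these groups.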

How the results depend on the processing

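The calls of IL1B and CCL2 in both groups against Empty, and of CXCR4 in NF-YAs against Empty and against NF-YAl, were kept under every alternative that tested the gene. Against Empty, 2 genes were called in NF-YAl under each alternative but 1 (1 gene with 10 counts in every library, since CCL2 was then untested), and 2 with any library left out. In NF-YAs 4 were called, with a range of 3 to 5 with a library left out. NF-YAl against NF-YAs gave 1 gene, but 2 by DESeq2 and 2 at adjusted p under 0.05 (CCL2 added), and 1 to 3 with a library left out (3 without NF-YAl replicate D, CXCL1 and CXCL8 added; 2 without Empty replicate B, CCL2 added). The summed CXCL1, CXCL2 and CXCL3 ranged from -0.20 to 0.90 (NF-YAl against Empty), 0.76 to 1.35 (NF-YAs against Empty) and -1.36 to -0.20 (NF-YAl against NF-YAs) with a library left out. It passed in NF-YAs at 1.16 with the 2 groups only and at 1.16 at adjusted p under 0.05, and without NF-YAl replicate D it reversed to -0.20 in NF-YAl and passed against NF-YAs. The causes were not tested.

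With the replicate block, the letter as a term in the fit, 4 genes were called between NF-YAl and NF-YAs (CCL2, CXCL1 and CXCL8 lower, CXCR4 higher). The block also gave the sum a log2FC of -0.29 in NF-YAl (reversed), 1.11 in NF-YAs and -1.41 between them, both latter values past the threshold, and CXCL8 passed in NF-YAs. Same-letter libraries correlated at -0.0652 to 0.253 in their deviations from group means, and libraries of different letters at -0.220 to 0.163. Deviations from means of 3 libraries cannot decide whether the letters pair the libraries. Since replicate D shares its letter with no library, it adds nothing to the blocked contrasts.

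Among single genes, directions turned only where no call stood. In NF-YAl against Empty, the block gave -0.22 (CXCL1), -0.43 (CXCL2), -0.31 (CXCL3), -0.32 (CXCL8) and 0.014 (CXCR4), and the TPM scale gave 0.16 (CXCR4), 0.093 (CCR6) and 0.021 (IL6). With a library left out the values ran from -0.12 to 1.08 for CXCL1, -0.32 to 0.65 for CXCL2, -0.21 to 0.86 for CXCL3 and -0.33 to 0.76 for CXCL8, each lowest and below 0 without NF-YAl replicate D, from -0.32 to 0.031 for CXCR4, highest without that replicate, and from -0.95 to 0.31 for IL6, above 0 without Empty replicate A or NF-YAl replicate B. In NF-YAs they ran from -0.42 to 0.44 for CXCL2 and -0.38 to 0.89 for CXCL3, lowest without NF-YAs replicate A, and from -0.50 to 0.078 for IL33. Between the isoforms the block gave -0.53 (CXCL2) and 0.045 (IL1A), and the TPM scale 0.14 (CXCL3), 0.043 (IL1A) and 0.017 (IL32). With a library left out the values ran from -0.48 to 0.73 for CXCL2, -0.77 to 0.89 for CXCL3, -0.24 to 0.29 for IL1A and -0.32 to 0.076 for IL32. Counts of IL6, IL1A, CCL20 and, in NF-YAl, CCL2 limit what can be told of these genes.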

Other observations

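Other genes of the same lists differed between the isoforms directly, all chosen as the called genes of counts of 5 or fewer. CSF3, the granulocyte colony-stimulating factor, was at 1.05, 0.556 and 1.02 CPM in Empty, 0.265, 0.245 and 0.534 CPM in NF-YAl and 4.15, 3.53 and 3.41 CPM in NF-YAs, a log2FC of -3.37 for NF-YAl against NF-YAs (edgeR adjusted p = 6.34e-05). BCL2A1, an anti-apoptotic gene, was at 4.50 to 5.15 CPM in NF-YAl and 13.4 to 19.2 CPM in NF-YAs (log2FC -1.71, adjusted p = 5.35e-05). The atypical receptor gene CCRL2 was at 1.38 to 2.26 CPM and 5.22 to 6.87 CPM (log2FC -1.67, adjusted p = 0.000369). The complement gene C3 had a log2FC of -1.94 (adjusted p = 0.00497), IL37 of -2.12 (adjusted p = 0.0026) and CASP1, the caspase that activates the IL1B protein, of -2.43 (adjusted p = 0.00985), all at or below 2.67 CPM. CCL25, a ligand of CCR9, was the 1 listed chemokine that was higher in NF-YAl, at 1.44 to 2.97 CPM against 0.448 to 0.737 CPM (log2FC 1.80, adjusted p = 0.00442).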
